A study of Mus musculus with 6 samples.

Results

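The 7 genes described here, *Park7*, *Pink1*, *Lrrk2*, *Vps35*, *Atp13a2*, *Fbxo7* and *Uchl1*, were listed by symbol because their human counterparts have been tied to inherited Parkinson disease or parkinsonism. All 7 had a row among the 17193 genes measured, and all 7 were among the 12255 genes with a mean of at least 1 FPKM, fragments scaled to transcript length in kilobases and to sequencing depth. The values came from astrocytes of wild-type C57BL/6 mice aged 3 months, which were pulled from brain tissue with beads against ACSA-2, an astrocyte surface antigen encoded by *Atp1b2*. One group was mock-treated and the other received quinpirole, an agonist of the dopamine receptor DRD2, with 3 libraries per group and no transgene in either. The labels do not say how many mice went into a library, so p-values measure the spread between these libraries, which may in part be technical. The study sequenced these libraries to look for effectors downstream of DRD2, and the comparison shown here asks how the Parkinson disease genes differed between the groups. Values of single libraries are given in the order of their numbers, 1 to 3.

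These genes belong to a few cellular systems. *Pink1* encodes a kinase that gathers on damaged mitochondria and marks them for removal by autophagy, and *Fbxo7* encodes an F-box protein that gives a ubiquitin ligase complex its substrates. *Park7* encodes DJ-1, a protein that senses oxidation, and *Uchl1* encodes an abundant ubiquitin hydrolase best known from neurons. *Vps35*, *Lrrk2* and *Atp13a2* act on endosomes and lysosomes, as the core of the retromer sorting complex, as a kinase of Rab GTPases and as a polyamine-exporting ATPase of the lysosome. Astrocytes support dopaminergic neurons with antioxidants and take up and degrade material from their surroundings, and both tasks draw on these systems.

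*Vps35* and *Park7* rose after quinpirole, by 16.0% and 15.3% of their mock means, and no other gene of the 7 passed the test. Under 19 alternative settings, *Park7* no longer passed in 13 and *Vps35* in 7. Neither passed when the replicate number was fitted as a block, or when any library other than mock 3 was left out. *Uchl1* lay 5.39% above and *Lrrk2* 13.6% below its mock mean, in both cases with no overlap between the groups and without passing the test, and the sign for *Uchl1* turned under quantile normalization. *Pink1*, *Atp13a2* and *Fbxo7* overlapped between the groups. Expression was tested with limma on log2(FPKM + 1), a scale on which the changes of weakly expressed genes are understated, and a gene passed when its Benjamini-Hochberg adjusted p over the 12255 genes was under 0.05. Of the 7, 2 passed as higher and 0 as lower, while 5.74% of all tested genes passed as higher and 5.18% as lower. At an unadjusted p under 0.05 from limma, the counts were 2 higher and 1 lower, the latter being *Lrrk2*, and 17.3% of all tested genes were higher and 14.0% lower at that level. The 3 quinpirole libraries all lay above the 3 mock libraries for 3 of the 7, against 20.0% of all tested genes, and all below for 1, against 16.9%. The median log2 fold change of the 7 was 0.053, compared with 0.015 over all tested genes.

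**Figure D1:**
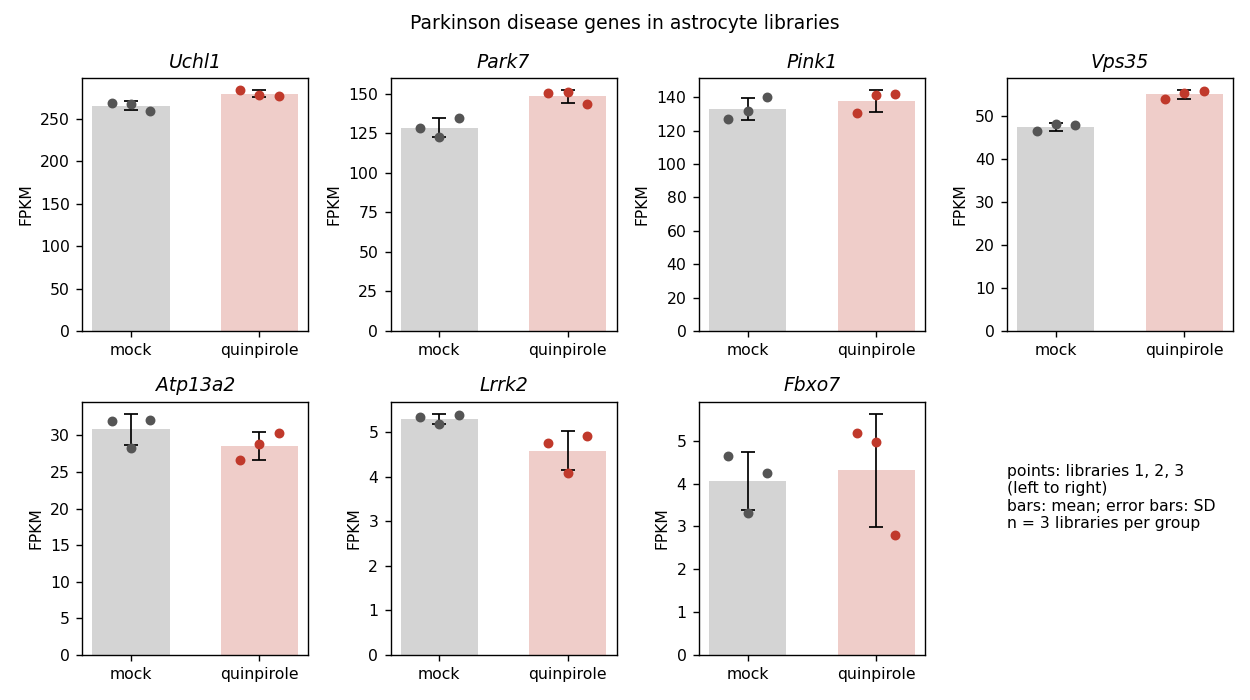
FPKM (vertical axes, each from 0) of the 7 genes in mock (gray) and quinpirole (red) libraries, with 1 point per library, bars at the mean and error bars of 1 SD (n = 3 libraries per group). *Vps35*, *Park7* and *Uchl1* points are higher in every quinpirole library (for *Uchl1* the mean difference turned under quantile normalization), *Lrrk2* points are lower, and the points of the other genes overlap.

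The sequences before the RefSeq start sites of *Park7* and *Lrrk2* are shown, since the groups did not overlap for these genes and their windows lay mostly outside exons. They are the parts of the RefSeq promoter windows (250 bases before to 50 after the start site, GRCm38.p6) that lie in no exon of GENCODE M21, 5′ to 3′ on the gene's strand. Capitals mark the GC box, GGGCGG, at which factors of the Sp family bind. The stretch for *Park7* is chr4:150909927-150910171 on the minus strand, upstream of the RefSeq start site but in an intron of annotated *Park7* transcripts that begin further upstream. The stretch for *Lrrk2* is chr15:91672974-91673174 on the plus strand.
Park7: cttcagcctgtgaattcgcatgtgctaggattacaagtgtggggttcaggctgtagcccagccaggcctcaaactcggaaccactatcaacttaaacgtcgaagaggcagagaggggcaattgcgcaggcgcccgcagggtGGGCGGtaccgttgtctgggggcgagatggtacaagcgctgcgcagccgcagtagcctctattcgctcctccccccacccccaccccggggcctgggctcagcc
Lrrk2: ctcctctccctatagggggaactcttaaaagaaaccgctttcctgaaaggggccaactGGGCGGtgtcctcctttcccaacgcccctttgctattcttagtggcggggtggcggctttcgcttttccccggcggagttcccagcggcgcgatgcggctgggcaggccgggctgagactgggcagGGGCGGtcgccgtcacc
The *Park7* window held 1 GC box, beginning 109 bases before the start site, and the *Lrrk2* window held 2, beginning 192 and 66 bases before it. Windows were found for 6 of the 7 genes, with 2 for *Fbxo7* and none for *Vps35*. GC boxes were also present in the windows of *Pink1* and *Atp13a2*, and 35.7% of the 32851 RefSeq windows hold one on either strand. The core of the antioxidant response element, TGACNNNGC, to which Nrf2 binds, was in none of the 7 windows on either strand, compared with 12.4% of all windows. The CLEAR core, TCACGTGA, a palindrome bound by the lysosomal regulator TFEB, was in 1 of the 2 *Fbxo7* windows and in 0.974% of all windows. In the *Fbxo7* window it began at base 42 of the 50 after the start site, thus downstream of it. The TATA box, TATAAA, was in none of the 7 windows and in 13.6% of all windows. The motifs were chosen with the expression results known and a match shows only that the letters are present. Of the 300 bases of the *Uchl1* window, 272 lie in exons of *Uchl1* or of its antisense gene *Uchl1os*.

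By level, which FPKM gives per transcript length, the 7 genes spanned from a mean of 273 FPKM for *Uchl1* to 4.19 FPKM for *Fbxo7* over the 6 libraries. *Uchl1* exceeded 98.3% of the tested genes, *Park7* (mean 139 FPKM) 96.3% and *Pink1* (135 FPKM) 96.2%. *Vps35* (51.2 FPKM) exceeded 87.8% and *Atp13a2* (29.7 FPKM) 78.0% of them. *Lrrk2* (4.95 FPKM) and *Fbxo7* lay in the lower part of the range, above 26.2% and 22.2% of the tested genes. Neighbors in this order were separated in every library, except for *Park7* and *Pink1* and for *Lrrk2* and *Fbxo7*. The ratio of *Park7* to *Pink1* was 1.02, 0.931 and 0.963 in mock and 1.15, 1.07 and 1.01 in quinpirole libraries, so it lay on both sides of equality in the mock group. The *Lrrk2* value was above the *Fbxo7* value in each mock library, but in the quinpirole group it was above it in library 3 alone.

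Gene length moved with the fold change over the whole table, and this touches each value below. In the quintile of genes with the shortest merged exons, to which *Park7* and *Uchl1* belong, the median log2 fold change was 0.116, and in the next, with *Pink1*, it was 0.062. It was -0.034 in the quintile of *Atp13a2* and *Fbxo7*, and -0.107 in the longest, with *Lrrk2* and *Vps35*. *Park7*, *Uchl1*, *Pink1*, *Lrrk2* and *Atp13a2* thus each differed in the direction of their length class, and *Vps35* and *Fbxo7* differed against it. After each library was corrected for the relation to exonic length, 2.09% of 12223 genes passed as higher, and *Vps35* was the 1 gene of the 7 that did so. Merged exons can be much longer than the main transcript, which has 3474 bases against 8899 for *Vps35* and 937 against 2479 for *Park7*. A correction for the length of the principal transcript was therefore added after the data had been seen. With it the log2 fold change of *Vps35* was 0.203, beside 0.21 as tested and 0.29 after the correction for merged length. The statement that *Vps35* differed against its length class thus holds for merged length. The share of these relations in the differences between the groups was not tested.

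**Figure D2:**
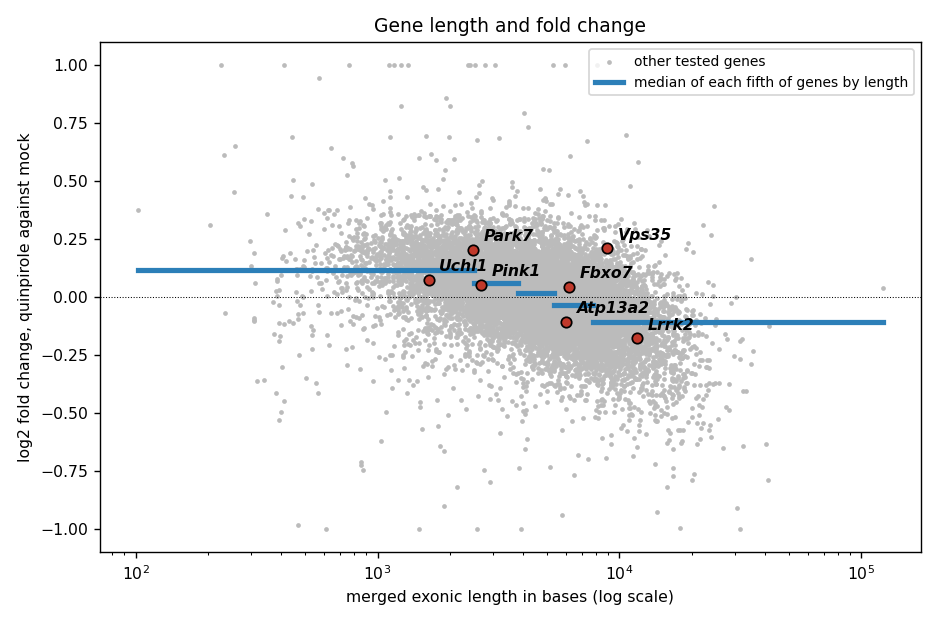
Merged exonic length in bases (log scale) against log2 fold change of quinpirole over mock for all tested genes with a length (gray; values beyond 1 in size are drawn at 1), with the median of each quintile of genes by length as a blue line. The medians fall from 0.116 to -0.107, and of the 7 genes (red) *Vps35* lies far above the median of its quintile.

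*Vps35* (ENSMUSG00000031696; GRCm38 chromosome 8, 85260392 to 85299802, minus strand) encodes the scaffold of retromer, which returns membrane proteins from endosomes. Its level was 46.4, 48.0 and 47.8 FPKM in the mock libraries and 53.9, 55.4 and 55.7 FPKM in the quinpirole libraries. The groups did not overlap, and each was tight, since 3.57% of tested genes had a smaller SD within groups. The mean rose from 47.4 ± 0.885 (SD, n = 3) to 55.0 ± 0.998 FPKM (SD, n = 3). Limma gave a log2 fold change of 0.21 (SE, standard error, 0.035; 95% confidence interval 0.128 to 0.293, adjusted p = 0.0247). An exact two-sided permutation test of the 3 libraries against 3 gave p = 0.1, which is the smallest such a design allows. The rise passed the test after correction for exonic length (0.29, adjusted p = 0.0308, limma) and for principal transcript length (0.20, adjusted p = 0.0412, limma). It no longer passed in limma without mock 1, mock 2, quinpirole 1, quinpirole 2 or quinpirole 3, where the adjusted p was 0.076, 0.0932, 0.0605, 0.0783 and 0.0557, while the log2 fold change stayed between 0.195 and 0.225 in these fits. Over all alternatives its adjusted p ran from 0.0194 to 0.125 (limma). Its exons overlap those of *Orc6* on the other strand over 171 bases, and the library kit does not mark strand. *Orc6* had 9.24, 10.6 and 10.2 FPKM in the mock libraries and 11.6, 10.9 and 12.3 FPKM in the quinpirole libraries, higher in each of the latter.

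None of the other retromer core genes passed the test. *Vps26b*, which encodes one form of the arrestin-like subunit, had 14.5, 14.9 and 14.1 FPKM in the mock libraries and 13.5, 13.1 and 13.3 FPKM in the quinpirole libraries. All quinpirole values were lower, without passing the test (log2 fold change -0.11, SE 0.044, adjusted p = 0.126 from limma). The other form, *Vps26a*, ranged from 10.5 to 30.0 FPKM, with mock 3 (10.5 FPKM) and quinpirole 2 (14.5 FPKM) far below the remaining 4 libraries (24.9 to 30.0 FPKM). *Vps29*, the third subunit, had 32.1, 29.5 and 27.5 FPKM in mock libraries and 35.6, 28.4 and 34.6 FPKM in quinpirole libraries, and the groups overlapped. The ratio of *Vps35* to *Vps26b* was 3.21, 3.23 and 3.39 in the mock and 3.99, 4.22 and 4.20 in the quinpirole libraries. These groups were apart, by 0.34 on the log2 scale, with p = 0.1 in the exact two-sided permutation test, the smallest possible, and 0.4 after Benjamini-Hochberg adjustment over the 6 ratios computed. The ratios were chosen after the values had been seen, and the other 5, including those of *Vps35* to *Vps26a* and to *Vps29*, overlapped between the groups. Of the 15 tested genes of retromer and its sorting partners, which include sorting nexins and the WASH complex, 0 passed the test in limma. At an unadjusted p under 0.05, 4 were higher and 2 lower, against 17.3% and 14.0% of all tested genes.

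**Figure D3:**
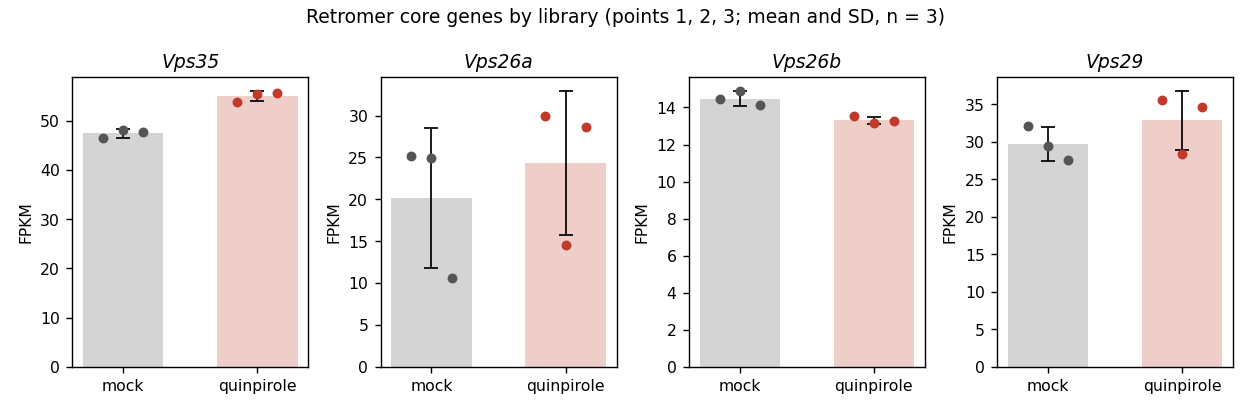
FPKM (vertical axes, each from 0) of the retromer core genes in mock (gray) and quinpirole (red) libraries, with points for libraries 1, 2 and 3 from left to right, bars at the mean and error bars of 1 SD (n = 3). *Vps35* is higher and *Vps26b* lower in every quinpirole library, while *Vps26a* has 1 low library in each group and *Vps29* overlaps.

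*Park7* (ENSMUSG00000028964; chromosome 4, 150897133 to 150914437, minus strand) had 129, 123 and 135 FPKM in the mock libraries and 150.4, 151 and 144 FPKM in the quinpirole libraries. Every quinpirole library was above every mock library. The mean rose from 129 ± 6.00 (SD, n = 3) to 148 ± 4.04 FPKM (SD, n = 3). Limma gave a log2 fold change of 0.20 (SE 0.044, 95% confidence interval 0.101 to 0.308, adjusted p = 0.0354; exact two-sided permutation p = 0.1). After the correction for exonic length it was 0.125 (adjusted p = 0.0918, limma), after that for principal transcript length 0.069 (adjusted p = 0.248, limma) and after quantile normalization 0.107 (adjusted p = 0.0956, limma). Without mock 1, mock 2, quinpirole 1, quinpirole 2 or quinpirole 3, the adjusted p from limma was 0.1, 0.116, 0.0892, 0.106 and 0.0566, and over all alternatives it ran from 0.0301 to 0.248. Of 4 measured relatives of DJ-1 and enzymes of methylglyoxal disposal, a task DJ-1 has also been linked to, 0 passed the test in limma. Over all tested genes, 5.74% passed as higher and 5.18% as lower. The glyoxalase gene *Glo1*, named after its values had been seen, was the 1 of the 4 that was higher at an unadjusted p under 0.05. At that level 0 of the 4 were lower, and the shares over all tested genes were 17.3% higher and 14.0% lower. The FPKM of *Glo1* was 67.2, 74.3 and 74.7 in mock libraries and 78.7, 83.2 and 81.0 in quinpirole libraries (log2 fold change 0.17, adjusted p = 0.0691, limma).

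*Uchl1* (ENSMUSG00000029223; chromosome 5, 66676091 to 66687234, plus strand) was the most abundant of the 7. It had 269, 268 and 259.7 FPKM in the mock libraries and 284, 278 and 278 FPKM in the quinpirole libraries. The quinpirole values were all higher, in groups tighter than those of most genes, since 2.63% of tested genes had a smaller SD. The means were 266 ± 5.21 (SD, n = 3) and 280.0 ± 3.65 FPKM (SD, n = 3), with a log2 fold change of 0.076 (SE 0.033, 95% confidence interval -0.002 to 0.153, adjusted p = 0.168 from limma). The sign turned after quantile normalization (-0.059) and after the corrections for exonic (-0.03) and principal transcript length (-0.042). *Uchl1os* overlaps its exons over 295 bases on the other strand and has no row among the measured genes, so reads of both cannot be told apart.

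*Uchl1* is used as a neuronal marker, and its level was set beside the neuronal genes of these libraries. *Snap25*, *Rbfox3* and *Elavl4*, the lowest of the 12 neuronal markers, were below 0.08 FPKM in every library. *Nefl* ranged from 0.205 to 0.38, *Syt1* from 0.58 to 0.675, *Celf4* from 1.02 to 1.52 and *Nefm* from 2.59 to 3.34 FPKM. *Stmn2*, a gene of growing axons and the highest of the 12 neuronal markers, had 53.3 to 56.5 FPKM in mock and 61.9 to 67.2 FPKM in quinpirole libraries, and it rose (log2 fold change 0.22, adjusted p = 0.0322 from limma). Other markers were at intermediate levels over the 6 libraries, with 16.6 to 22.3 FPKM for *Tubb3*, 10.6 to 13.2 FPKM for *Gap43*, 10.8 to 12.9 FPKM for *Eno2* and 2.57 to 3.27 FPKM for *Syn1* (named after their values had been seen). *Tubb3* and *Gap43* values were higher and *Syn1* values lower in every quinpirole library, *Eno2* values overlapped, and none of these 4 passed the test. The 12 markers summed to between 102 and 108 FPKM in mock and between 115 and 121 FPKM in quinpirole libraries, below the level of *Uchl1* alone. Their sums, like *Uchl1*, *Park7* and *Vps35*, were higher in every quinpirole library, and their part in these differences was not tested. In bulk samples, fewer cells of a type and less RNA per cell cannot be told apart.

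Among its relatives, *Uchl5*, which encodes a deubiquitinase of the proteasome, rose from 8.34, 8.56 and 8.57 FPKM in the mock libraries to 10.8, 10.6 and 10.2 FPKM in the quinpirole libraries. In limma it changed by 0.28 on the log2 scale (SE 0.047, adjusted p = 0.025), and by 0.22 (adjusted p = 0.0454) after the correction for exonic length. *Uchl3*, the closest relative of *Uchl1*, had 6.14 to 9.02 FPKM in mock and 8.12 to 9.65 FPKM in quinpirole libraries, and the groups overlapped. Of its longest transcript, 7.51% of the words of 50 bases also occur in *Uchl4*. Of the 8 tested genes of the UCH family and ubiquitin, *Uchl5* was the 1 that passed. Over all tested genes, 5.74% passed as higher and 5.18% as lower. The unadjusted p from limma was under 0.05 for 3 higher and 0 lower of the 8, beside 17.3% and 14.0% of all tested genes.

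*Pink1* (ENSMUSG00000028756; chromosome 4, 138313409 to 138326307, minus strand) had 127, 132 and 140.0 FPKM in the mock libraries and 130.3, 141 and 142 FPKM in the quinpirole libraries. The lowest quinpirole library lay below 2 of the mock libraries. The means were 133 ± 6.71 and 138 ± 6.50 FPKM (SD, n = 3 each), with a log2 fold change of 0.053 (SE 0.052, 95% confidence interval -0.068 to 0.173, adjusted p = 0.519 from limma). The sign turned after quantile normalization and both length corrections, with values between -0.035 and -0.001.

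Of the 25 tested genes of PINK1-dependent mitophagy and its receptors, 4 rose and 0 fell in limma, beside 5.74% and 5.18% of all tested genes. At an unadjusted p under 0.05, 8 were higher and 1 lower, beside 17.3% and 14.0%. *Vdac1*, a channel of the outer mitochondrial membrane, had 186, 189 and 193 FPKM in mock libraries and 218, 217 and 213 FPKM in quinpirole libraries (log2 fold change 0.19, adjusted p = 0.0251, limma). *Sqstm1*, which encodes the autophagy receptor p62, had 226, 227 and 233 FPKM in mock and 248, 253 and 249 FPKM in quinpirole libraries (0.13, adjusted p = 0.0471, limma). *Bnip3*, a mitophagy receptor of the outer mitochondrial membrane, had 11.9 to 13.2 FPKM in mock and 14.5 to 15.9 FPKM in quinpirole libraries (0.235, adjusted p = 0.0459, limma). *Tomm22*, a subunit of the import pore at which PINK1 gathers, had 48.0 to 49.8 FPKM in mock and 53.5 to 59.2 FPKM in quinpirole libraries (0.18, adjusted p = 0.0491, limma). None of these 4 passed after the correction for exonic length, with adjusted p from 0.0577 to 0.257 from limma. The single gene of the list that did was *Tomm70a* (0.198), with an adjusted p from limma that rounds to 0.05. Of all 12223 genes so corrected, 2.09% passed as higher. With this correction, 9 of the 25 reached an unadjusted p under 0.05 from limma in either direction, beside 3158 of all 12223 genes. The 9 were all higher, but all genes were not counted by direction at that level.

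*Lrrk2* (ENSMUSG00000036273; chromosome 15, 91673175 to 91816120, plus strand) had 5.35, 5.18 and 5.39 FPKM in the mock libraries and 4.75, 4.09 and 4.92 FPKM in the quinpirole libraries. All quinpirole values lay below all mock values, with quinpirole 2 the lowest. The means were 5.31 ± 0.112 and 4.59 ± 0.436 FPKM (SD, n = 3 each). Limma gave a log2 fold change of -0.18 (SE 0.072, 95% confidence interval -0.346 to -0.01, adjusted p = 0.142; exact two-sided permutation p = 0.1). After the correction for exonic length it was -0.051 (adjusted p = 0.647, limma), and after that for principal transcript length -0.002 (adjusted p = 0.987, limma, the highest of its alternatives, which began at 0.124). *Lrrk1*, its paralog, had 25.4, 24.6 and 22.6 FPKM in mock libraries and 22.4, 20.5 and 22.2 FPKM in quinpirole libraries. The groups were apart in the same direction as for *Lrrk2*, without passing the test (-0.15, adjusted p = 0.133, limma). The ratio of *Lrrk2* to *Lrrk1* was 0.211, 0.211 and 0.239 in mock libraries and 0.212, 0.199 and 0.221 in quinpirole libraries, and it overlapped.

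Of the 26 tested relatives, Rab substrates and regulators of LRRK2, 1 rose and 1 fell in limma, beside 5.74% and 5.18% of all tested genes. Without adjustment, 6 were higher and 2 lower at p under 0.05 from limma, beside 17.3% and 14.0% of all tested genes. *Ywhaq*, which encodes a 14-3-3 protein of the family that binds phosphorylated LRRK2, had 130.0, 133 and 145 FPKM in mock libraries and 169, 166 and 163 FPKM in quinpirole libraries. In limma it changed by 0.285 on the log2 scale (SE 0.048, adjusted p = 0.0247), and it passed after the correction for exonic length too (0.23, adjusted p = 0.0374, limma). *Spag9*, which encodes the motor adaptor JIP4 that binds phosphorylated Rab proteins, had 34.2, 34.2 and 33.3 FPKM in mock and 31.0, 27.5 and 30.1 FPKM in quinpirole libraries. It fell by 0.195 on the log2 scale (adjusted p = 0.0498, limma), but the value was -0.08 (adjusted p = 0.236, limma) after the correction for exonic length.

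*Atp13a2* (ENSMUSG00000036622; chromosome 4, 140986873 to 141007330, plus strand) had 32.0, 28.3 and 32.1 FPKM in the mock libraries and 26.6, 28.8 and 30.3 FPKM in the quinpirole libraries. The groups overlapped through mock 2. The means were 30.8 ± 2.15 and 28.6 ± 1.88 FPKM (SD, n = 3 each), with a log2 fold change of -0.11 (SE 0.067, 95% confidence interval -0.262 to 0.05, adjusted p = 0.318 from limma). Of the related ATPases, *Atp13a1*, which removes misplaced proteins from the endoplasmic reticulum membrane, had 21.2 to 22.4 FPKM in mock and 20.3 to 21.1 FPKM in quinpirole libraries. These groups were apart without passing the test (-0.072, adjusted p = 0.277, limma). *Atp13a3*, another polyamine transporter, had 13.0 to 16.2 FPKM in mock and 13.0 to 14.3 FPKM in quinpirole libraries, and the groups overlapped.

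Of the 16 tested P5-type ATPases and lysosomal genes tied to parkinsonism, 2 rose and 0 fell in limma, beside 5.74% and 5.18% of all tested genes. At an unadjusted p under 0.05, 4 were higher and 1 lower, beside 17.3% and 14.0% of all tested genes. *Asah1*, the acid ceramidase gene, had 61.8, 63.3 and 65.3 FPKM in mock libraries and 74.1, 75.2 and 72.2 FPKM in quinpirole libraries (log2 fold change 0.215, adjusted p = 0.0251, limma). *Gpnmb*, which encodes a glycoprotein of lysosomes and melanosomes and is also expressed by microglia, had 72.1, 68.9 and 67.2 FPKM in mock and 77.3, 80.1 and 76.3 FPKM in quinpirole libraries (0.17, adjusted p = 0.0449, limma). Both also passed after the correction for exonic length, with adjusted p of 0.0396 and 0.0438 from limma.

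*Fbxo7* (ENSMUSG00000001786; chromosome 10, 86021972 to 86051873, plus strand) was the most variable of the 7. It had 4.65, 3.31 and 4.24 FPKM in the mock libraries and 5.18, 4.97 and 2.80 FPKM in the quinpirole libraries. The quinpirole group held both the highest and the lowest values. The means were 4.07 ± 0.687 and 4.32 ± 1.32 FPKM (SD, n = 3 each), with a log2 fold change of 0.045 (SE 0.195, 95% confidence interval -0.41 to 0.5, adjusted p = 0.895 from limma). The SD within groups exceeded that of 96.5% of the 3792 tested genes within a factor of 2 of its level. The coefficient of variation was 16.9% in the mock and 30.6% in the quinpirole group, whereas counting error alone would give 5.4% at the lowest of the estimated fragment numbers, 340 to 740 per library. A difference of the size seen for *Vps35* or *Park7* would lie inside this interval, so none of that size was detectable here. The antisense gene *A230060F14Rik*, with no row among the measured genes, overlaps the exons over 314 bases.

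The genes that act with *Fbxo7* were far more abundant. In the SCF ubiquitin ligase, an F-box protein joins the adaptor SKP1, the scaffold CUL1 and the RING protein RBX1. *Rbx1* rose, from 38.6, 40.3 and 41.2 FPKM in mock libraries to 46.5, 44.9 and 45.1 FPKM in quinpirole libraries (log2 fold change 0.18, adjusted p = 0.0377, limma; adjusted p = 0.0514 after the correction for exonic length). *Cul1* had 27.3 to 29.9 FPKM in mock and 30.1 to 33.8 FPKM in quinpirole libraries, apart but without passing (0.14, adjusted p = 0.133, limma). *Skp1a* (201 to 230.5 FPKM in mock, 216 to 257 FPKM in quinpirole libraries) overlapped between the groups. So did *Psmf1*, whose product PI31 binds FBXO7, with 10.8 to 11.8 FPKM in mock and 11.7 to 11.98 FPKM in quinpirole libraries.

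Over all 8 lists, 113 genes related to the 7 were tested, and 9 (7.96%) rose and 1 (0.885%) fell in limma, beside 5.74% and 5.18% of all tested genes. Their median log2 fold change was 0.064, compared with 0.015 over all tested genes. After the correction for exonic length, 6 passed as higher, 4 of which were among the 10 (*Asah1*, *Gpnmb*, *Uchl5* and *Ywhaq*), and the median was 0.032. With quantile normalization the split was 3 higher and 2 lower. Without mock 1, mock 2, quinpirole 1, quinpirole 2 or quinpirole 3, 0 of the 113 passed in limma in each case, while 10 passed without mock 3. The list of other genes tied to inherited parkinsonism had 16 tested genes, of which 0 passed in limma. At an unadjusted p under 0.05, 1 was higher and 5 were lower, beside 17.3% and 14.0% of all tested genes. The dopaminergic genes *Th* and *Slc6a3* of that list were below 0.04 FPKM in every library.

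**Figure D4:**
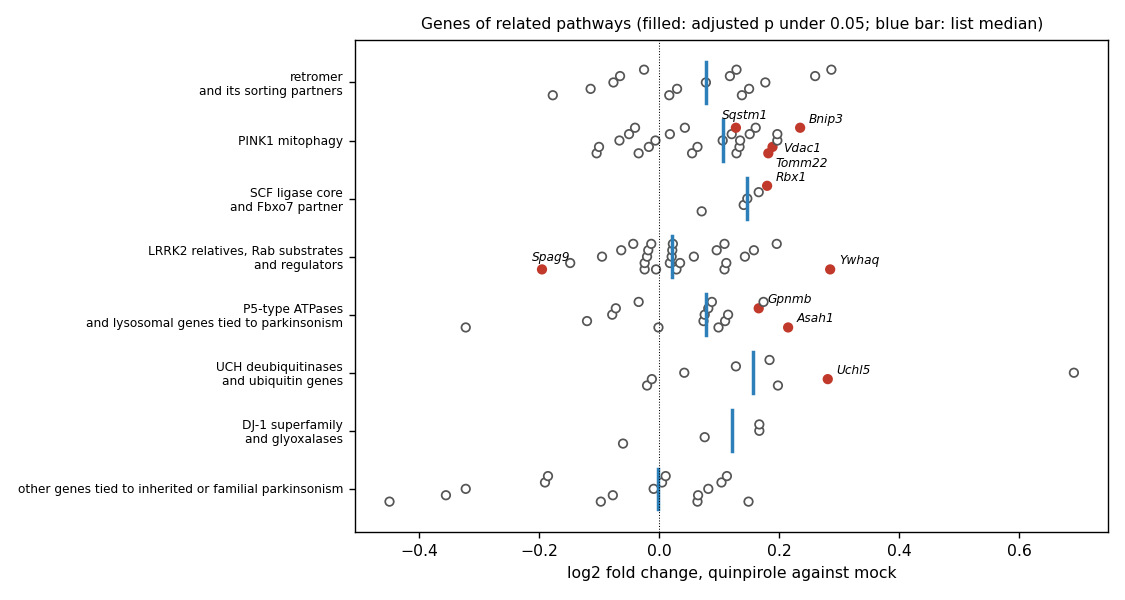
Log2 fold change of quinpirole over mock for each tested gene of the 8 lists, with filled red points for genes with an adjusted p under 0.05 (limma) and a blue bar at the list median. The 10 filled points spread over 5 lists, 9 of them to the right of 0, and the list of other parkinsonism genes is centered near 0 (median -0.002).

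The profiles of the 7 genes over the 6 libraries were compared with those of all tested genes. For each gene, the 2 tested genes with the most similar profile were found by the root mean square difference of log2(FPKM + 1), each gene centered on its mean over the 6 libraries. For *Park7* they were *Qdpr* (difference 0.0134) and *Cryab* (0.0135), which encode dihydropteridine reductase and a small heat shock protein. For *Vps35* they were *Cdk4* (0.0125) and *Pigp* (0.0128), for *Uchl1* *Pabpc1* (0.0121) and *Tsr1* (0.0134), and for *Pink1* *Nubp2* (0.0128) and *Ngrn* (0.0156). Such profiles were common, since between 468 and 1212 genes lay within 0.05 of each of these 4. They were rarer for *Lrrk2*, closest to *Tnik* (0.0199) and *Slc25a42* (0.0217) with 164 genes within 0.05, and for *Atp13a2*, closest to *Ptbp3* (0.0303) and *Atxn7l2* (0.0357) with 48. *Fbxo7* had 0 genes within 0.05, and its closest were *Hist3h2ba* (0.0953) and the ribosomal protein gene *Rpl21* (0.0995). Among the 21 pairs that the 7 genes form, the difference was smallest for *Park7* and *Vps35* (0.0549) and largest for *Lrrk2* and *Fbxo7* (0.311). These are descriptions of 6 libraries.

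**Figure D5:**
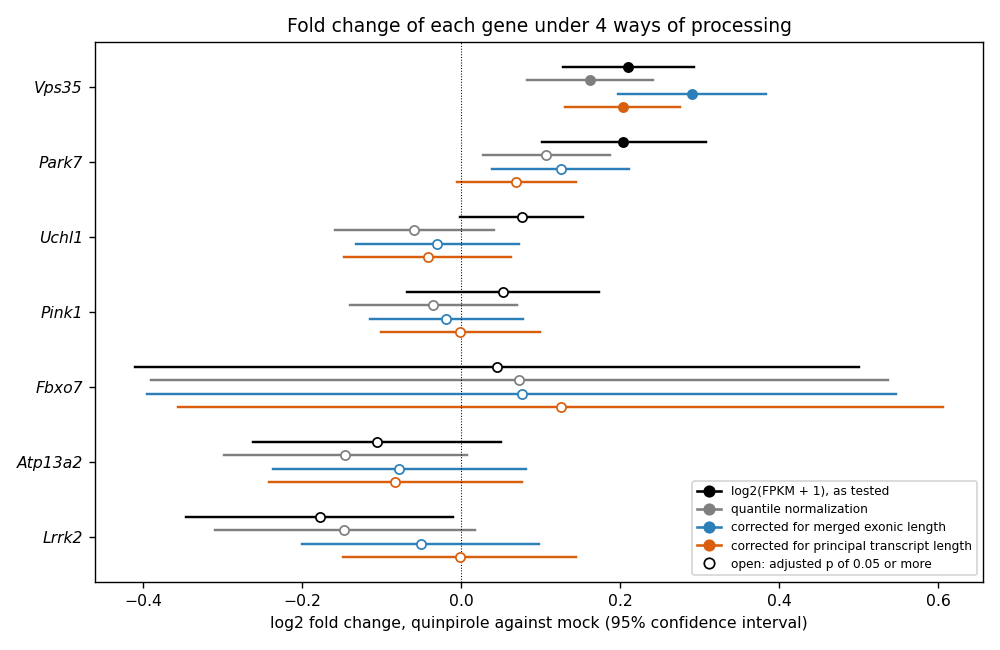
Log2 fold change of quinpirole over mock for the 7 genes with its 95% confidence interval, as tested (black), after quantile normalization (gray), and after correction for merged exonic length (blue) or principal transcript length (orange). Filled points have an adjusted p under 0.05 (limma). *Vps35* stays between 0.162 and 0.29 and is filled in each, *Park7* moves from 0.204 to 0.069 and is filled once, and *Uchl1* and *Pink1* change sign.

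The cell type labels were compared with marker genes. The 12 astrocyte markers summed to between 1536 and 1692 FPKM in mock and between 1512 and 1546 FPKM in quinpirole libraries. *Gfap* led them (482 to 560 FPKM). The lowest were *Slc1a2* (5.15 to 8.55 FPKM), *S100b* (5.01 to 6.18 FPKM) and *Gjb6* (below 0.3 FPKM), named after their values had been seen. Of the 11 tested, 0 rose and 3 fell in limma (*Atp1b2*, *Slc1a2* and *Slc4a4*), beside 5.74% and 5.18% of all tested genes. At an unadjusted p under 0.05, 0 were higher and 5 lower, beside 17.3% and 14.0%. After the correction for exonic length, 1 of the 11 passed as lower (*Atp1b2*), as did 253 of 12223 genes. Microglial markers, led by *C1qa* (198 to 252 FPKM), summed to between 862 and 928 and between 916 and 1009 FPKM. Of the 10 tested, 1 rose and 0 fell in limma, and 0 passed in either direction after the correction for exonic length. At an unadjusted p under 0.05, 3 were higher and 3 lower, beside the same shares of all tested genes. Oligodendrocyte markers, nearly all from *Cnp* (151 to 171 FPKM), summed to 158 to 178 and 165 to 176 FPKM, and ependymal markers, led by *Foxj1* (118 to 130.1 FPKM), to 145 to 164 and 144 to 154 FPKM. Pericyte markers, led by *Pdgfrb* (20.7 to 27.2 FPKM), summed to 26.8 to 29.4 and 22.3 to 23.4 FPKM. Of the 2 tested, *Pdgfrb* fell in limma (log2 fold change -0.296, adjusted p = 0.0227), beside the same 5.18% of all tested genes. It also passed as lower after the correction for exonic length (-0.282, adjusted p = 0.0308, limma). Endothelial markers, led by *Kdr* (4.40 to 5.84 FPKM), summed to 7.92 to 8.27 and 6.50 to 7.67 FPKM, and those of oligodendrocyte precursors, led by *Cspg4* (1.15 to 1.98 FPKM), to 2.83 to 4.05 and 2.51 to 2.64 FPKM. None of the tested oligodendrocyte, ependymal, endothelial or precursor markers passed in limma. After the correction for exonic length, 1 ependymal marker passed as lower. A sum that rests mostly on 1 gene does not show that the cell type was present. The part of cells other than astrocytes in the levels of the 7 genes was not tested. The tables hold no counts, and the steps of the lowest FPKM values put the depth at 22500000 to 27700000 fragments per library, with the lowest estimate for quinpirole 3.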

How the data were processed

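RNA sequencing was performed on ACSA-2-selected astrocytes from 3 mock and 3 quinpirole libraries, grouped by their treatment labels. The authors made libraries with an NEBNext Ultra kit that does not mark strand, sequenced paired ends, mapped reads with TopHat2 (GRCm38 per the labels; version not given in the sources used here) and deposited a table of FPKM per library, 1 value for each gene. The program that computed FPKM is not given in the sources used here. Gene symbols were matched for 17090 of 17193 identifiers, and lengths and positions came from GENCODE M21, which may differ from the one the authors used.

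Values were tested as log2(FPKM + 1) for genes averaging at least 1 FPKM over the libraries. The fit used R 4.3.3 and its package limma, version 3.58.1 (lmFit, eBayes with trend, two-sided, Benjamini-Hochberg, threshold 0.05). For the length and GC corrections, each library's deviation from the gene mean was fitted by loess (span 0.3) and subtracted, which also removes any true change related to length. Ratios and single genes were compared by exact permutation. Depth was estimated from FPKM steps of 1254 genes with 1 transcript, within a search range narrowed after a first solution at about double the depth was seen. Between 60.3% and 72.2% of low values lay within 0.1 of a whole fragment, and counting errors derived from these estimates cover counting only. Tables and figures were made in Python 3.11.15 (pandas 2.3.3, numpy 2.4.6, matplotlib 3.10.9, scipy 1.17.1), and the tests were checked on simulated data.

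The 7 genes, the related gene lists and the tests were chosen with earlier results of these data known. Named genes are the 7, the listed genes past the threshold, direct partners whatever their values (apart from items that are not reported here), the highest marker of each list and the 2 genes most like each of the 7. Alternatives were another pseudocount, other filters, scaling, eBayes settings, length and GC corrections, a replicate block and the omission of each library.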

Additional observations from a re-analysis of the deposited data

How the results depend on the processing

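Over 19 alternatives, 131 values were computed for the 7 genes. In 100 of these the direction and the call stayed as tested, in 20 the direction stayed but the gene no longer passed, and in 11 the sign turned. *Atp13a2* and *Lrrk2* never changed sign or passed.

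Genes past the threshold in limma numbered 1339 (704 higher, 635 lower) as tested, 633 when low values were not filtered, 783 with quantile normalization (283 higher, 500 lower), 714 with eBayes without trend (293 higher, 421 lower) and 509 with the length correction. They numbered 375 with the length and GC corrections and 242 with the principal length correction, which was chosen after seeing the data. Without single libraries they numbered from 3 (without mock 2) to 1215 (without mock 3). The 7 genes gave 2 calls as tested, 1 call (*Vps35*) under each of those 6 settings, and 0 to 2 without single libraries. The genes of the related lists gave 10 as tested, 5, 5, 4, 6, 3 and 2 under these settings in the order given, and 0 to 10 without single libraries.

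*Park7* no longer passed with no filter (0.204, adjusted p = 0.0552), eBayes without trend (0.204, 0.0607), quantile normalization (0.107, 0.0956), the length correction (0.125, 0.0918), the length and GC corrections (0.143, 0.0712) and the principal length correction (0.069, 0.248), all from limma. Without single libraries, *Park7* ranged from 0.171 to 0.238, *Vps35* from 0.195 to 0.225 and *Fbxo7* from -0.081 to 0.271 on the log2 scale, and the sign for *Fbxo7* turned without mock 2, quinpirole 1 or quinpirole 2 (-0.067, -0.081 and -0.055). *Pink1* ranged from 0.019 (without mock 1) to 0.092 (without quinpirole 1), *Atp13a2* from -0.163 (without mock 2) to -0.057 (without quinpirole 1), *Lrrk2* from -0.221 (without quinpirole 3) to -0.113 (without quinpirole 2) and *Uchl1* from 0.059 (without mock 3) to 0.085 (without mock 1). The sign turned with quantile normalization for *Pink1* (-0.035) and *Uchl1* (-0.059), with the length correction (-0.019 and -0.03) and with the principal length correction (-0.001 and -0.042). The cause was not tested.

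With the replicate block, 2 genes of all, 0 of the 7 (*Park7* 0.204, adjusted p = 0.1; *Vps35* 0.21, adjusted p = 0.0809) and 0 of the related genes passed in limma, while 3308 genes had an unadjusted p under 0.05. With the block and the length correction together, these counts were 0, 0 and 0, with 2723 at an unadjusted p under 0.05, *Park7* at 0.125 (adjusted p = 0.173), *Vps35* at 0.29 (adjusted p = 0.125), *Pink1* at -0.019 and *Uchl1* at -0.03. Whether libraries of the same number form pairs could not be told. Deviations from the group means correlated at -0.048 on average for the same number and at 0.024 for different numbers, and none of the 6 libraries correlated best with the library of its own number. Deviations within a group are not independent, so these averages are tied to each other and cannot exclude pairing or a shared batch.

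*Fbxo7* and *Lrrk2* rested on the fewest estimated fragments, from 340 and 860 per library. Without recorded counts, no count-based test was run.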
